A study of Mus musculus with 6 samples.

Results

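Most of the genes described here encode adhesion proteins of synapses and axons, and the measurement is H3K9me3, the histone mark of heterochromatin, in skeletal muscle. The genes were chosen by symbol in the authors' table of H3K9me3 regions and fall into 13 families: contactins, contactin-associated proteins, neurexins, neuroligins, LRRTM, SLITRK, FLRT, teneurins, CSMD, BRINP, Lrp1b, DSCAM and IgLON proteins. Of these, CSMD, BRINP and Lrp1b are membrane or neural proteins of other kinds. The authors assigned 6833 of 202553 regions to 47 of these genes. Another 2 genes of the families, Cntnap1 and Nlgn3, had no region.

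The mice were Prr14-KO, with libraries from replicates 4, 5 and 7, and Prr14-WT, with libraries from replicates 3, 4 and 8. All 6 libraries came from flash-frozen quadriceps femoris, a thigh muscle, and used an antibody against H3K9me3 in CUT&Tag, which brings a transposase to the antibody so that DNA close to the mark is cut and tagged. The knockout allele, any Cre driver, the age, sex and strain of the mice and any batch are not given in the sources used here. Nor do the labels say that each library is a separate mouse, so the p-values measure the spread between these libraries. The series title names Prr14 in mechanotransduction and myofibre identity.

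Neurexins on the presynaptic side bind neuroligins and LRRTM proteins on the postsynaptic side, teneurins and FLRT proteins bind latrophilins, and SLITRK proteins bind receptor phosphatases. Contactins and their CNTNAP partners hold axon and glial membranes together, and the IgLON proteins are small membrane-anchored immunoglobulin proteins. Most of these genes are known for expression in neurons and several rank among the longest genes of the mouse. H3K9me3 is bound by HP1 proteins, and PRR14 is known to tether HP1-bound heterochromatin to the nuclear lamina.

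Libraries held between 4324444 and 4707466 counts in the knockouts and between 4636898 and 4756133 in the wild types, and a region of these genes held a median of 15.7 counts per library. At Prr14 itself the single region, chr7:127475331-127476074 (GRCm38), held 14, 56 and 54 counts in Prr14-KO and 10, 18 and 10 in Prr14-WT. This region passed the test (log2 difference 1.79, 95% interval 1.04 to 2.54, edgeR adjusted p = 0.0217), although knockout replicate 4 lay within the wild-type range. In the authors' deposited table its log2 difference is 1.69 and its adjusted p 1.00. Since the deleted part of the gene is not given, these counts do not check the labels. The assay holds no expression, so muscle identity could not be read from transcripts. The 15 genes of a muscle list, most of them sarcomere genes, had 42 regions in all, and Actn3, Mylpf, Tnnc2 and Tnni2 had none. In tissue taken whole, fewer cells with the mark and less mark per cell cannot be told apart.

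The authors' table lists H3K9me3 at these genes as many narrow regions. The median region of the 47 genes was 326 bp wide, against 317 bp for all other regions, and no region of the table was longer than 2500 bp. Signal per length had a median of 10.4 CPM per kb, where CPM is the count scaled to library size, for these genes and 10.2 for all other regions. The genes had a median of 133 regions each, against 4 for the other genes of the table. Like gene lists also had many. The median was 115 for cadherin and protocadherin genes outside the clusters, 34 for other synaptic adhesion genes and 24 for glutamate and GABA receptor genes. Signal between the listed regions was not measured, so the table does not show whether the mark was continuous there.

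Regions were joined into stretches where the gap to the next was at most 10 kb. The genes then had 2126 stretches, with a median of 2 regions and 6.07 kb, against a median of 2 regions and 2.98 kb over the whole table. The longest ran 129 kb and 20 regions in Cntnap5c, followed by 127 kb and 26 regions beside Brinp3 and 110 kb and 16 regions in Cntn5. The gap decides these lengths. With 5 kb the median stretch was 0.70 kb, and with 20 kb it was 36.8 kb, with the longest at 1095 kb.

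The number of regions differed widely between genes. Cntnap5b, a contactin-associated protein gene, had the most at 464, followed by Csmd3, a gene of a large complement-regulator-like membrane protein, with 438 and Brinp3, a gene of a BMP- and retinoic acid-inducible neural protein, with 363. Lrp1b, a very large receptor of the LDL receptor family, had 352, and Cntnap5a had 319. At the other end were Nlgn2, the neuroligin of inhibitory synapses, with 1 region, Lrrtm2 with 2 and Flrt1 with 4. Of the 47 genes, 26 had 100 or more regions, and these 26 held 6057 of the 6833.

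Many regions lay outside the gene to which they were assigned. Inside gene spans lay 2400 regions, upstream 2868 and downstream 1565. Of the 18 genes with spans under 200 kb, 14 had most of their regions outside. Slitrk1, a single 5.36 kb gene of a leucine-rich-repeat adhesion protein, had 287 regions, of which 1 was inside its span. Slitrk1, Slitrk5 and Slitrk6 on chromosome 14 together were assigned 619 regions, nearly all of them outside the gene spans. By contrast Cntnap2 held 215 of its 306 inside its 2245 kb span, and Lrp1b 202 of 352 inside 2058 kb.

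**Figure D1:**
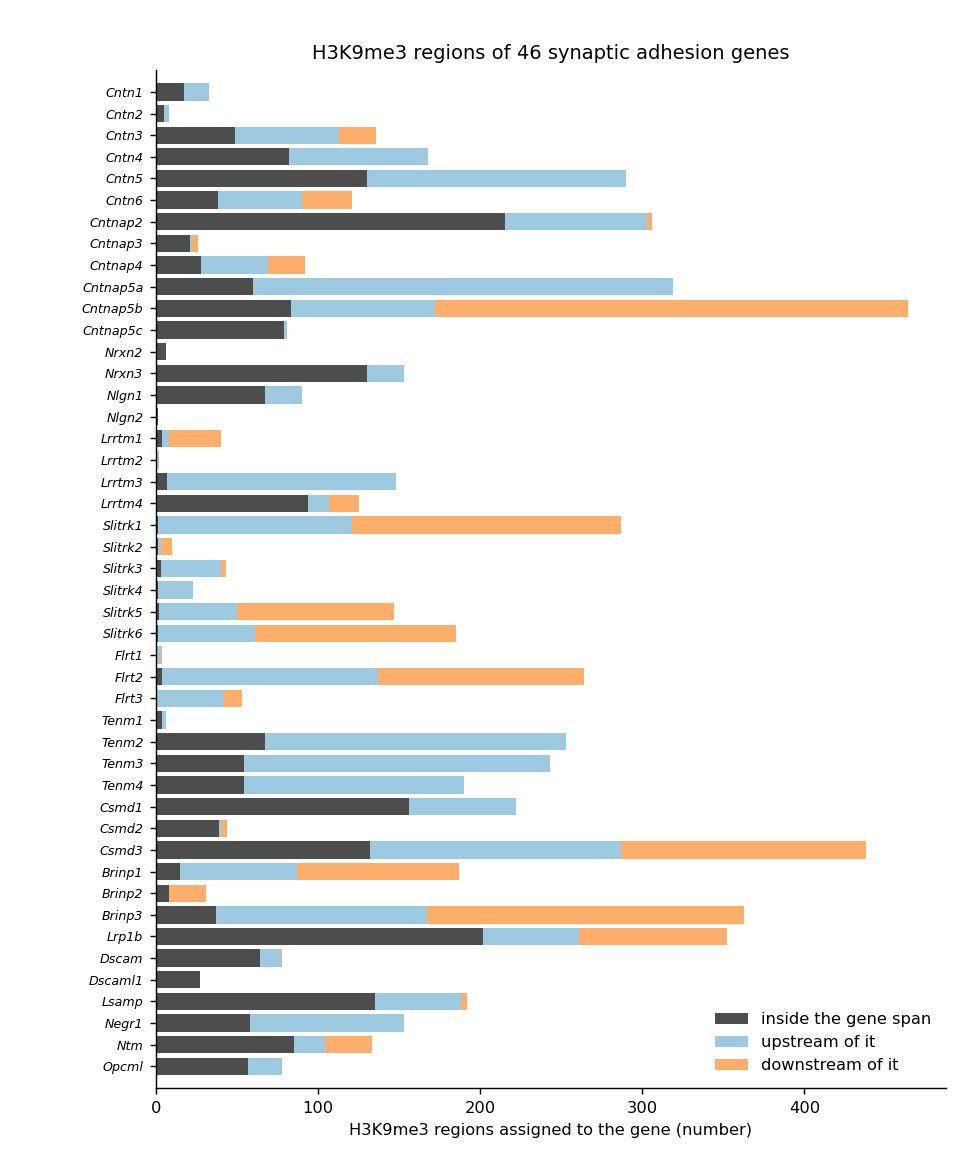
Number of H3K9me3 regions (x axis) that the authors assign to each of 46 of the 47 genes (y axis, grouped by family), split into regions inside the gene span, upstream of it and downstream of it. Cntnap5b has the most, 464, mainly downstream, while the 287 regions of Slitrk1 lie almost wholly outside the gene.

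By the authors' annotation, more of these regions lay in introns and fewer at promoters than in the table as a whole. Of the regions, 61.7% were intergenic, 36.1% intronic, 0.849% exonic and 0.834% within 1 kb of a start site. Over the whole table the shares were 68.1% intergenic, 22.6% intronic, 2.06% exonic and 3.80% within 1 kb of a start site. The families differed in this respect: 98.7% of SLITRK regions were intergenic, against 12.4% for the DSCAM genes and 24.2% for the neuroligins. The X chromosome held 39 of the regions (0.571%), against 1.71% of all regions. Tenm1, the teneurin gene on X, had 6 regions, against 253, 243 and 190 for its autosomal relatives Tenm2, Tenm3 and Tenm4. The number of X copies differs between the sexes, and the sex of the mice is not given.

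Inside the long gene bodies the mark was, in most of the genes, no denser than in the ground around them. For the 23 genes with spans of 500 kb or more, all regions inside the span were counted, whichever gene they were assigned to. The median was 105 regions per Mb, against 80.8 in the 200 other genes of that length. In the 500 kb on each side the median was 119 regions per Mb, against 85.0 beside the other long genes. Regions were denser inside than beside the gene in 10 of 23, against 80 of 200 other long genes. Summed signal was higher inside in 6 of 23, against 73 of 200, and the medians were 421 CPM per Mb inside and 521 beside.

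Single genes show the same order of levels. Nlgn1, the neuroligin of excitatory synapses, held 286 CPM per Mb inside its span and 735 beside it. Csmd3 held 432 inside and 751 beside, and Lrp1b 444 and 716. The reverse was found at Tenm3, with 483 inside and 335 beside, and at Csmd2, with 605 inside and 423 beside. The Tenm3 span used here, the authors' own, is shorter than that of RefSeq. Tenm1 was lowest, with 25.5 inside and 36.6 beside. These are levels over all 6 libraries, given as a description.

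Along the gene bodies the signal differed between segments in a like way in both genotypes, with no steady rise or fall. Each of the 23 spans was divided into 10 segments of equal length from the start of the gene to its end, and regions numbered from 220 to 263 per segment. Summed CPM per segment averaged between 880 ± 23.02 and 1138 ± 15.4 in the knockouts and between 884 ± 50.7 and 1105 ± 5.88 in the wild types (SD, n = 3 each). In both genotypes segment 2 was the lowest and segment 5 the highest. Segment 5 includes the strongest single region of the genes, in an intron of Ntm. That region had 92.4 CPM in the knockouts and 93.1 CPM in the wild types. Without it segment 5 would not be the highest in either genotype. The genotypes overlapped in 8 of the segments. In segment 3 the knockouts held 1006 to 1058 and the wild types 1065 to 1107, and in segment 5 the knockouts held 1125 to 1155 and the wild types 1101 to 1112. These segments point opposite ways, and no test was made along the gene. Among all gene sums of the table, 4.33% had every knockout above every wild type and 4.17% had every knockout below. A segment pools regions of many genes and was scaled as single regions are. These shares are therefore not a like measure for segments.

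**Figure D2:**
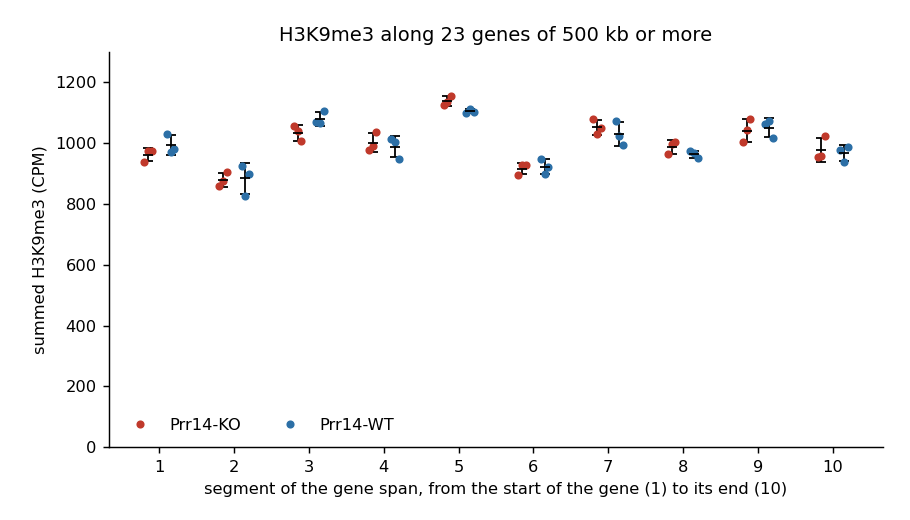
Summed H3K9me3 (y axis, CPM) in each of 10 segments of the gene span (x axis, start to end) over the 23 genes of 500 kb or more, for Prr14-KO (red) and Prr14-WT (blue); points are libraries, bars the mean and SD. All points lie between 828 and 1155 CPM with no steady slope along the gene.

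The question of the genotype comparison is whether loss of Prr14 moved the mark at these genes. No member region passed the test, and no gene sum did, with or without intergenic regions. The total over the member regions was nearly equal in the genotypes. The 95% intervals printed below bound the differences that the data leave possible. Summed over all 6833 regions, the mark was 30406, 29014 and 30103 CPM in Prr14-KO replicates 4, 5 and 7, and 30330, 29632 and 29437 CPM in Prr14-WT replicates 3, 4 and 8. The genotypes overlap. The means were 29841 ± 732 CPM in the knockouts and 29800 ± 470 CPM in the wild types (SD, n = 3 each), or 2.98% ± 0.0729 of all counts in the knockouts and 2.99% ± 0.0652 in the wild types. The labels name no spike-in, and scaling between libraries removes any difference shared by all regions.

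Of the 5426 member regions with enough counts to test, 0 passed an edgeR adjusted p of 0.05, where 0.013% of all 153789 tested regions did. At an unadjusted edgeR p under 0.05, 81 were higher and 79 lower in Prr14-KO, or 2.95% of the members, against 3.86% of all regions (2.07% higher and 1.78% lower). DESeq2 also called 0, with 82 higher and 86 lower without adjustment, where 1.92% of all regions were higher and 1.71% lower. Limma-voom called 0, with 63 higher and 60 lower without adjustment, where 1.47% of all regions were higher and 1.3% lower. In the authors' deposited table, 0 of 5729 member regions had an adjusted p under 0.05, where 0.00796% of all regions with an adjusted p did. The authors' deposited table has 77 higher and 148 lower of the 6833 without adjustment, where 3268 (1.61%) of all its regions were higher and 4656 (2.3%) lower. In the authors' deposited table the median log2 difference was -0.06 for the members and -0.05 for all regions. In the edgeR fit the medians were -0.0021 for the members and 0.0039 for all regions, and the standard error of a member region had a median of 0.46, so that differences at single regions were resolved only when large.

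Counts summed per gene are more precise. Of the 47 gene sums 0 passed an edgeR adjusted p of 0.05 (0.0393% of all 15265 gene sums did), and 0 had an unadjusted p under 0.05 (3.58% of all did). DESeq2 and limma-voom called 0 as well, with 0 and 1 at an unadjusted p under 0.05 (2.48% and 3.35% of all). The median log2 difference was -0.02, against 0.0016 over all gene sums, with 15 genes higher and 32 lower in Prr14-KO, where 50.4% of all gene sums were higher and 49.6% lower. The sign of the members' median is not fixed: it was 0.014 without knockout replicate 5, 0.0056 without wild-type replicate 3 and 0.0074 with regions of 500 bp or more. The median standard error was 0.07. The 95% interval lay within a 1.2-fold difference either way for 38 of the 47 genes, within 1.5-fold for 43 and within 2-fold for 45.

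A gene sum includes the intergenic regions assigned to the gene. Leaving these out does not leave the gene body alone, since a region classed as intronic can lie outside the span of its gene. Flrt3 had 53 intron regions and Flrt1 had 4, with 0 regions inside either span. Lrrtm3 had 99 intron regions and 7 regions inside its span. With promoter, exon, intron and untranslated regions alone, 46 genes could be tested and 0 passed an edgeR adjusted p of 0.05 (0.0599% of all 11682 did). An unadjusted p under 0.05 was found at 0 of them (4.31% of all). DESeq2 and limma-voom called 0, with 0 and 1 without adjustment (2.98% and 3.78% of all). The median log2 difference was -0.04, against 0.0037 over all such sums, with 14 genes higher and 32 lower (50.7% higher and 49.3% lower of all). It was 0.0047 with regions of 500 bp or more. Every knockout lay above every wild type in 3 genic sums, Brinp1, Brinp3 and Nlgn2, an order that 4.86% of all genic sums had. Every knockout lay below every wild type in 5, Cntn1, Flrt3, Nrxn2, Slitrk2 and Slitrk4, where 4.3% of all did. The smallest p was that of Cntn1, which encodes a contactin of the axon's paranodes, with 57.1 ± 2.69 CPM in Prr14-KO and 68.2 ± 8.49 CPM in Prr14-WT (SD, n = 3 each; log2 difference -0.27, 95% interval -0.55 to 0.0026, edgeR adjusted p = 1.00).

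**Figure D3:**
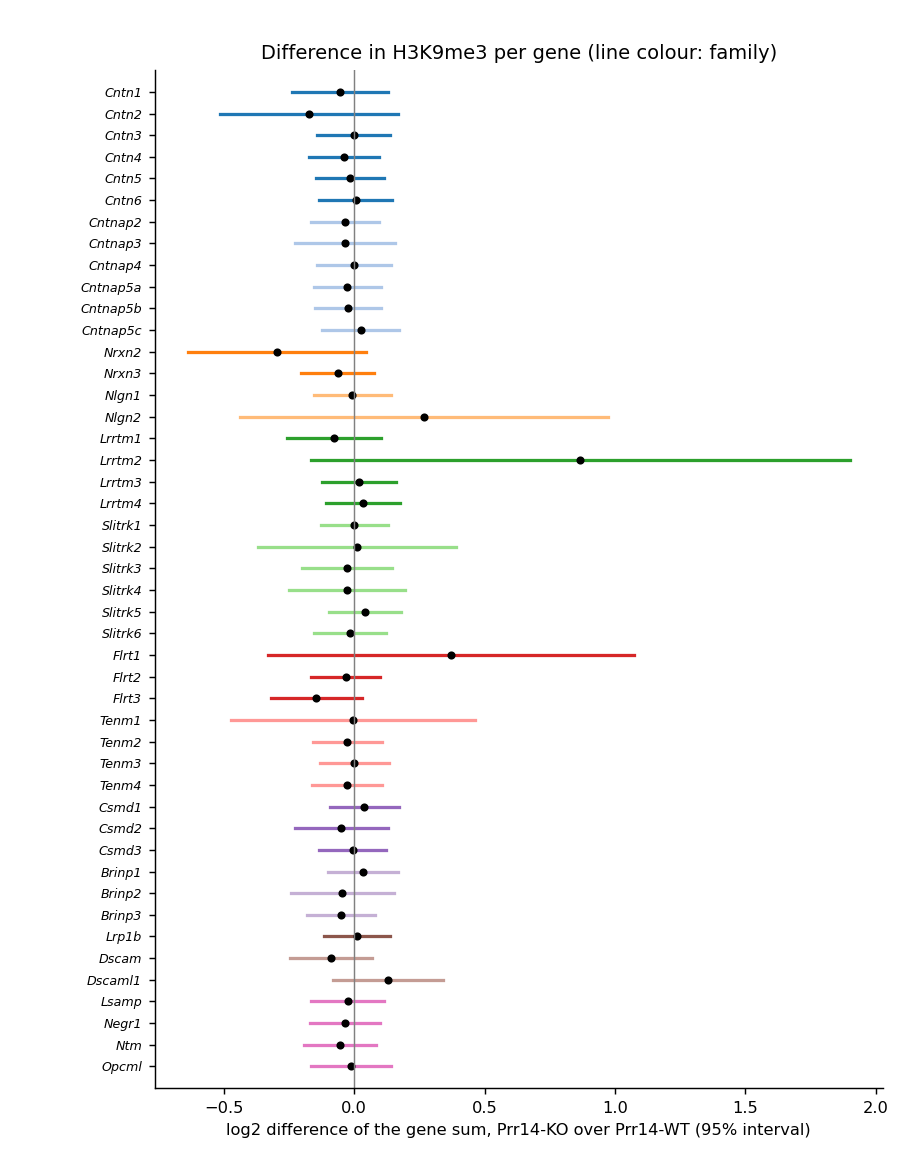
Log2 difference of the gene sum, Prr14-KO over Prr14-WT (x axis), for 46 of the 47 genes (y axis, grouped by family); points are edgeR estimates and lines 95% intervals. Each of these intervals includes 0, and the widest belong to genes with few counts, such as Lrrtm2 (0.87) and Flrt1 (0.37).

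Among the presynaptic neurexins, Nrxn3 had 153 regions and 2545, 2502 and 2324 counts in Prr14-KO and 2949, 2518 and 2563 in Prr14-WT. Scaled, this is 549 ± 20.6 CPM in the knockouts and 574 ± 47.8 CPM in the wild types (SD, n = 3 each), a log2 difference of -0.06 (95% interval -0.20 to 0.08, edgeR adjusted p = 1.00). Nrxn2 had only 6 regions, with 139, 106 and 138 counts in Prr14-KO and 166, 166 and 158 in Prr14-WT. Its knockout libraries all lay below its wild-type libraries, and it had the smallest p of the gene sums (log2 difference -0.30, 95% interval -0.64 to 0.05, edgeR unadjusted p = 0.0879, adjusted p = 1.00). Of the full gene sums it was the one with all knockouts below all wild types, where 4.17% of all gene sums had that order.

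Their postsynaptic partners showed no common direction. Nlgn1 summed to 1671, 1587 and 1633 counts in Prr14-KO and 1891, 1656 and 1573 in Prr14-WT (log2 difference -0.01, 95% interval -0.15 to 0.14). The single region of Nlgn2 held 39, 35 and 36 counts in Prr14-KO and 30, 34 and 31 in Prr14-WT. Of the full gene sums it was the one with all knockouts above all wild types, an order that 4.33% of all gene sums had, and its interval was wide (log2 difference 0.27, 95% interval -0.44 to 0.97). Lrrtm2 held 35, 21 and 23 counts in Prr14-KO and 23, 3 and 19 in Prr14-WT. It had the largest difference of the 47 on the thinnest counts (0.87, 95% interval -0.17 to 1.90, edgeR adjusted p = 1.00). Lrrtm3 and Lrrtm4, with 148 and 125 regions, had log2 differences of 0.02 and 0.03.

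In the full gene sums of the SLITRK, FLRT and teneurin genes the genotypes overlapped. In the genic sums 3 of these genes did not overlap, with every knockout below every wild type and none past the test. The genic sum of Flrt3 was 157 ± 11.98 CPM in Prr14-KO and 175 ± 6.09 CPM in Prr14-WT, and that of Slitrk2 was 1.63 ± 1.02 CPM in Prr14-KO and 3.60 ± 0.731 CPM in Prr14-WT. That of Slitrk4 was 5.49 ± 1.53 CPM in Prr14-KO and 7.96 ± 1.02 CPM in Prr14-WT (SD, n = 3 each). The genic sums of Slitrk2 and Slitrk4 are each 1 promoter region. With the scaling used for single regions, the genotypes overlapped at that of Slitrk4. Slitrk1 summed to 6245, 5506 and 5765 counts in Prr14-KO and 6415, 5920 and 5908 in Prr14-WT, which after scaling is 1305 ± 57.1 CPM in the knockouts and 1304 ± 57.5 CPM in the wild types (SD, n = 3 each). Slitrk5 had a log2 difference of 0.04 (95% interval -0.10 to 0.18). Flrt3 held 650, 726 and 741 counts in Prr14-KO and 846, 765 and 833 in Prr14-WT (-0.15, 95% interval -0.32 to 0.03). Its full and genic sums hold the same counts, so whether its genotypes overlap rests on the scaling. None of the Flrt3 regions lay inside its span. Flrt1, with 4 regions, held 22, 50 and 68 counts in Prr14-KO and 30, 59 and 24 in Prr14-WT (0.37, 95% interval -0.33 to 1.07), and Flrt2, with 264, had a log2 difference of -0.03. Tenm2 summed to 4589, 3899 and 4147 counts in Prr14-KO and 4659, 4458 and 4284 in Prr14-WT (-0.03, 95% interval -0.16 to 0.11).

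The contactins and contactin-associated proteins, which held the most signal of all the families, were close to equal. The 6 CNTNAP genes summed to 5862 ± 354 CPM in the knockouts and 5952 ± 130 CPM in the wild types (SD, n = 3 each). Cntnap5b alone held 11124, 9204 and 9439 counts in Prr14-KO and 10433, 10662 and 10399 in Prr14-WT (log2 difference -0.02, 95% interval -0.15 to 0.10). Cntn5 had a log2 difference of -0.02 (-0.15 to 0.11). Cntn2, a contactin of the juxtaparanodes with 8 regions, held 113, 144 and 156 counts in Prr14-KO and 156, 148 and 182 in Prr14-WT (-0.17, 95% interval -0.51 to 0.17).

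Among the remaining families, Csmd3 summed to 10429, 8712 and 8910 counts in Prr14-KO and 10067, 9940 and 9284 in Prr14-WT (log2 difference -0.0046, 95% interval -0.13 to 0.12). Csmd1 had a log2 difference of 0.04 (-0.09 to 0.17), Brinp3 of -0.05 (-0.18 to 0.08) and Lrp1b of 0.01 (-0.12 to 0.14). The 2 genes of Down syndrome cell adhesion molecules, which bind their own kind between cells, pointed apart: Dscam had a log2 difference of -0.09 (-0.25 to 0.07) and Dscaml1 of 0.13 (-0.08 to 0.34). The 4 IgLON genes chosen here had values just under 0, from -0.05 at Ntm to -0.01 at Opcml, with Lsamp at -0.02 and Negr1 at -0.04. Their relative Iglon5 was not among the chosen symbols and was counted with the other synaptic adhesion genes. The sum of the 4 was 2203 ± 77.6 CPM in the knockouts and 2256 ± 118 CPM in the wild types (SD, n = 3 each).

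**Figure D4:**
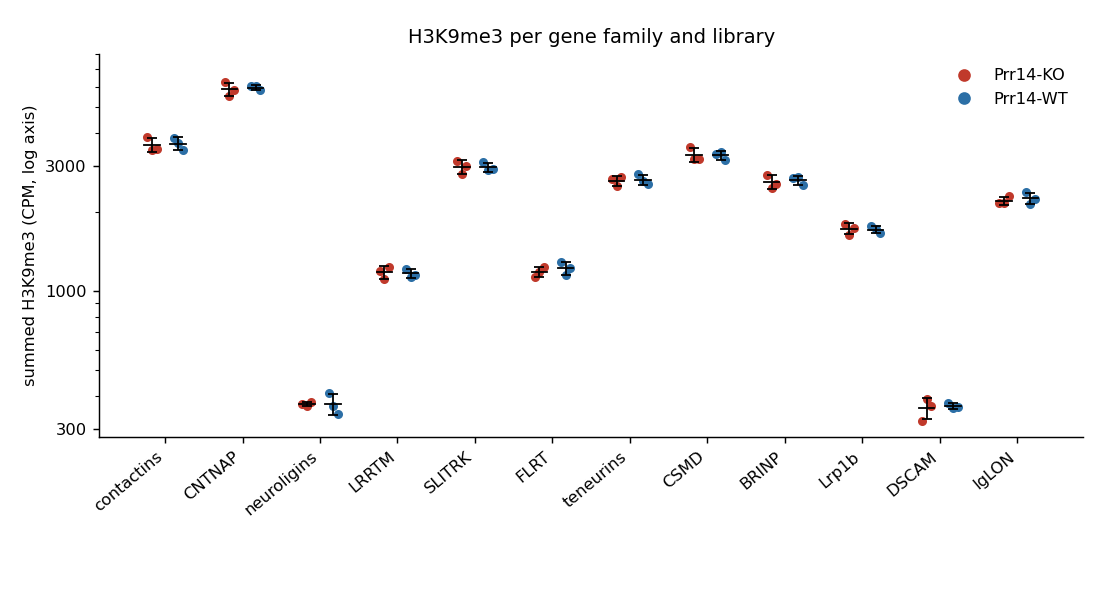
H3K9me3 summed over the regions of 12 of the families (y axis, CPM on a log axis) by family (x axis) for Prr14-KO (red) and Prr14-WT (blue); points are libraries, bars the mean and SD. The families run from 373 CPM (neuroligins) and 359 CPM (DSCAM) to 5862 CPM (CNTNAP) in the knockouts, and the genotypes overlap in all 12.

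The strongest single region of the genes lay in an intron of Ntm, which encodes the IgLON protein neurotrimin, at chr9:29483822-29485374. It held 442, 432 and 358 counts in Prr14-KO and 406, 476 and 427 in Prr14-WT, or 92.4 ± 8.92 CPM in the knockouts and 93.1 ± 8.99 CPM in the wild types (SD, n = 3 each). Next came an intergenic region upstream of Negr1 at chr3:156433157-156434811, with 59.5 ± 7.35 CPM in the knockouts and 49.97 ± 7.41 CPM in the wild types (log2 difference 0.25, 95% interval -0.06 to 0.57). A region downstream of Lrp1b had 33.0 ± 2.53 CPM in the knockouts and 30.9 ± 4.06 CPM in the wild types. An intron region of Cntn6 had 28.9 ± 4.30 CPM in the knockouts and 28.2 ± 1.47 CPM in the wild types. Knockout and wild-type libraries overlapped at all 4 of these regions.

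Of regions with the smallest p, none was near an adjusted p of 0.05. In an intron of Cntnap5a, chr1:115894349-115894748 held 6, 7 and 10 counts in Prr14-KO and 24, 31 and 26 in Prr14-WT (-1.72, 95% interval -2.71 to -0.73, edgeR adjusted p = 0.998). Both directions were also met within single genes. Brinp3 had an intron region with 39, 34 and 40 counts in Prr14-KO and 18, 20 and 20 in Prr14-WT, and a downstream region with 48, 46 and 37 in Prr14-KO and 51, 82 and 98 in Prr14-WT. Flrt2 had a downstream region at a log2 difference of 1.42 and another at -1.97. Other such regions were higher at Lrrtm4 (1.82) and Lrp1b (0.96) and lower at Slitrk1 (-1.34) and Ntm (-1.79), all with an edgeR adjusted p of 0.998.

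The 160 member regions with an unadjusted p under 0.05 were spread over 40 genes, and 26 of these had such regions in both directions. Brinp3 had 12 of 305 tested (3.93%), of which 4 were higher and 8 lower in Prr14-KO. Lrp1b had 10 of 292 (3.42%), with 6 higher and 4 lower. Tenm3 had 8 of 183 (4.37%), with 7 higher and 1 lower, while its gene sum had a log2 difference of 0.0014. These shares are near the 3.86% of all tested regions. Inside gene spans 36 were higher and 24 lower of 1833 tested, where 2.56% of all regions inside spans were higher and 1.66% lower. Upstream 29 were higher and 35 lower of 2297, where 1.87% of all were higher and 1.84% lower. Downstream 16 were higher and 20 lower of 1296, where 1.97% of all were higher and 1.8% lower.

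Few of the regions lay at promoters, but these were not weaker than the rest. Promoter regions had a median of 594 bp and 10.3 CPM per kb, against 326 bp and 10.4 CPM per kb for all member regions. Within 1 kb of a start site there were 57 regions in 34 genes, and 13 genes had none, among them Csmd3, Slitrk1 and Lrrtm4. Their sum was 423 ± 26.3 CPM in the knockouts and 431 ± 32.8 CPM in the wild types (SD, n = 3 each). At 0 of the 50 tested the unadjusted edgeR p was under 0.05, where 5.48% of all 5856 tested regions of that class had one. At Nrxn3 the region near a start site held 107, 70 and 59 counts in Prr14-KO and 117, 97 and 89 in Prr14-WT (-0.29, 95% interval -0.70 to 0.13).

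The genotypes did not overlap at 4 of the 57. The region of Nlgn2 had every knockout above every wild type, an order that 6.05% of all regions of that class had. One region each of Nrxn3, Cntn1 and Slitrk2 had every knockout below every wild type, where 3.5% of all did, and these 3 held at most 23 counts in a library.

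At the other promoter regions of the highest level the genotypes overlapped. That of Cntn4 had 21.5 ± 1.56 CPM in the knockouts and 20.2 ± 1.61 CPM in the wild types, and that of Brinp1 had 16.5 ± 3.96 CPM in the knockouts and 13.5 ± 1.89 CPM in the wild types. Slitrk5 had 15.05 ± 1.53 CPM in the knockouts and 15.5 ± 6.78 CPM in the wild types, where 1 library, wild-type replicate 8, held 108 counts against 59 and 51 in the other 2. Cntnap2 had 12.9 ± 2.001 CPM in the knockouts and 14.9 ± 2.30 CPM in the wild types. Lsamp had 14.4 ± 2.54 CPM in the knockouts and 13.0 ± 3.74 CPM in the wild types, and Lrp1b had 13.1 ± 3.09 CPM in the knockouts and 13.6 ± 2.96 CPM in the wild types (SD, n = 3 each).

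**Figure D5:**
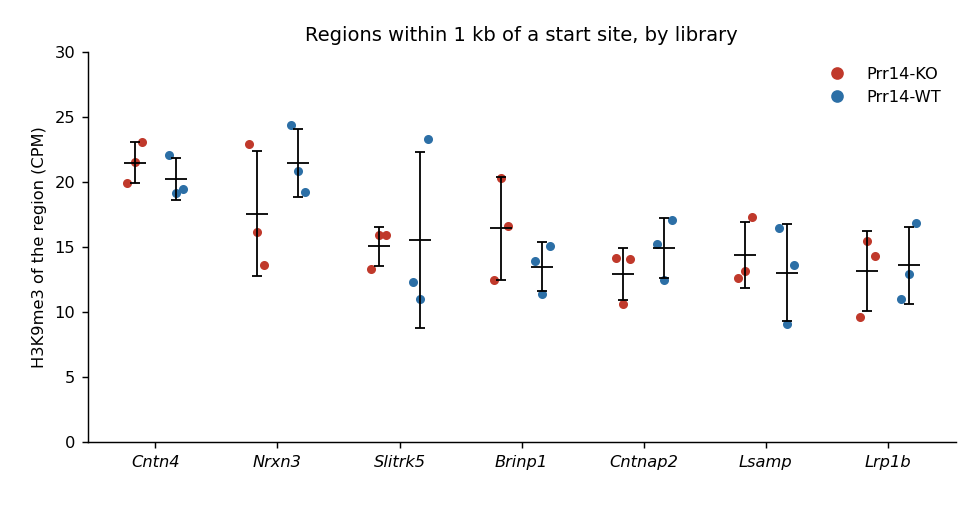
H3K9me3 (y axis, CPM) of 7 promoter regions with high means, 1 per gene (x axis), for Prr14-KO (red) and Prr14-WT (blue); points are libraries, bars the mean and SD. The Cntn4 promoter region averages 21.5 CPM in Prr14-KO and 20.2 CPM in Prr14-WT, and the genotypes overlap at all 7.

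RefSeq (GRCm38.p6) gives promoter windows, from 250 bases before a start site to 50 after it, for 33 of the 47 genes. A region overlapped 19 of the 48 windows (39.6%, 14 genes), against 11.8% of all 32851 windows of RefSeq. The genes here were taken because they have regions, and the windows of the whole table include genes without any. The windows with a region held a median of 12 CG pairs and 57.7% G and C, against 7 and 47.7% in the 29 windows without one. Over the whole table windows with a region likewise held more, 17 against 6.

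The upstream sequences of 4 windows that lay wholly inside a region are printed to show this range of CG content at marked start sites, 250 bases each, 5′ to 3′ on the strand of the gene, with each CG pair in capitals. At Cntnap5b (+ strand, chr1:99772151-99772400) the region held 43, 32 and 36 counts in Prr14-KO and 38, 32 and 33 in Prr14-WT. At Brinp1 (- strand, chr4:68954398-68954647) it held 58, 88 and 72 counts in Prr14-KO and 67, 53 and 70 in Prr14-WT. At Cntn5 (- strand, chr9:10904776-10905025) it held 12, 9 and 21 counts in Prr14-KO and 23, 17 and 23 in Prr14-WT. At a start site inside Cntnap2 (+ strand, chr6:47244146-47244395) it held 14, 8 and 22 counts in Prr14-KO and 14, 19 and 18 in Prr14-WT. The 4 stretches hold 12, 11, 24 and 3 CG pairs.
Cntnap5b: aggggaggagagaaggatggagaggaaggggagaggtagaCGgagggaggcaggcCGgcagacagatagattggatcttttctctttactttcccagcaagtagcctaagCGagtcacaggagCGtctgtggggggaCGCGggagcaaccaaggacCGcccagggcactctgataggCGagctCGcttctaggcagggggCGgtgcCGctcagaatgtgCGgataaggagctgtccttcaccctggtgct
Brinp1: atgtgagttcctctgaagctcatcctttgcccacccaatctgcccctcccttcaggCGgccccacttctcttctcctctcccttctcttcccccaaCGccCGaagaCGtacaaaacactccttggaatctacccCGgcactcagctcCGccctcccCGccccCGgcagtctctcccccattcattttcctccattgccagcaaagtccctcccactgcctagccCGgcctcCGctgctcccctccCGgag
Cntn5: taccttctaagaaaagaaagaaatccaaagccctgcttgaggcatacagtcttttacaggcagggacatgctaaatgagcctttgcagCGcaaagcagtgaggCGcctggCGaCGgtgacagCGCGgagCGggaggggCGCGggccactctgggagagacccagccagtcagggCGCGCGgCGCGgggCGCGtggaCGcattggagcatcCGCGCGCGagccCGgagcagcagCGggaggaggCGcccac
Cntnap2: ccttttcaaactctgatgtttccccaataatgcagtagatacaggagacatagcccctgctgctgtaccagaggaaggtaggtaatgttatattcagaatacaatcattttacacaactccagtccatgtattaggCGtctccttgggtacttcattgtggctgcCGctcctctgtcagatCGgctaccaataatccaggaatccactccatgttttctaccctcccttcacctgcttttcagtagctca

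REST, a repressor of neuronal genes in other tissues, binds a long element of which 9 letters, TTCAGCACC, were searched on both strands. These letters were found in 2 of the 48 windows (4.17%), against 0.371% of all windows. The difference rests on 2 matches and was not tested, and some of the 48 windows overlap each other. They lay in the window of Cntnap5b, on the opposite strand, inside the H3K9me3 region and across the end of the stretch printed above, and in a window of Nlgn1 on chromosome 3, on the strand of the gene, with no region. Both sites are shown because they are the only matches, with the matched letters in capitals and 10 bases on each side, at chr1:99772385-99772413 and chr3:26154121-26154149.
Cntnap5b: ccttcaccctGGTGCTGAAtctagctctt
Nlgn1: gtgattggagTTCAGCACCctggttacta
The MEF2 motif was found in 0 of the 48 windows, against 3.19% of all windows, which says nothing of MEF2C at these genes outside these windows.

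Other lists gave a like picture. Of 61 other synaptic adhesion genes, 59 had regions (Lrfn4 and Nptn had none), with a median log2 difference of -0.03 over the 59 gene sums. By edgeR 0 of them passed, and 1, Cbln1, had an unadjusted p under 0.05 (log2 difference -0.18). This is 1.69% of them, where 3.58% of all gene sums had such a p. Among their 3703 tested regions 1 passed, where 0.013% of all tested regions did. It was an intergenic region assigned to the latrophilin gene Adgrl2, with a log2 difference of -0.98 (edgeR adjusted p = 2.47e-07). Of 48 glutamate and GABA receptor genes tested 0 passed, with a median of -0.04. Only Grik4 (2.08% of them) had an unadjusted edgeR p under 0.05 (-0.18), against 3.58% of all gene sums. Of 35 cadherin and protocadherin genes outside the clusters 0 passed, 0 had an unadjusted p under 0.05, and the median was -0.02.

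Genes of other cell types were looked at because nerve, glia and vessels are part of a muscle. That list had regions at 18 of 21 genes, with Cd68 and S100b among those at 0 regions, and summed to 1118 ± 44.7 CPM in the knockouts and 1124 ± 19.1 CPM in the wild types (SD, n = 3 each). By edgeR 0 of the 18 passed. Dcn, a gene of connective tissue, had an unadjusted p under 0.05 (log2 difference -0.23), as 3.58% of all gene sums did. The muscle list, mostly sarcomere genes, summed to 139 ± 28.5 CPM in the knockouts and 133 ± 17.2 CPM in the wild types. Of its 8 genes tested 0 passed. The slow myosin gene Myh7 (-0.96) and the myoglobin gene Mb (0.39) had an unadjusted edgeR p under 0.05, as 3.58% of all gene sums did. Both had an edgeR adjusted p of 0.9998. The gene sums of this list are imprecise, with a median standard error of 0.34.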

How the data were processed

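H3K9me3 CUT&Tag libraries of quadriceps femoris (3 Prr14-KO, 3 Prr14-WT) were analysed from the authors' table of 202553 regions. Tools in the submitters' processing notes are bedtools, BWA, deepTools, DESeq2 1.6.3, MACS2 and Trimmomatic, and the build is GRCm38; settings are absent. The sources used here do not say whether libraries were pooled to call regions, how reads of repeated sequence were placed, or whether the first base of a chromosome is 0 or 1. Per the file headers, the authors deposited a raw count per region and library. The deposited signal is the count divided by a factor per library and was not tested. The authors' log2 difference is Prr14-KO over Prr14-WT. The authors' p-value was used as deposited. The deposited score was not used.

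Counts of regions, of all regions with a gene symbol (681 without one left out) and of its promoter, untranslated, exon and intron regions were tested across all features with edgeR 4.0.16 in R 4.3.3 (filterByExpr with minimum count 10 and total 15, TMM, robust quasi-likelihood, Benjamini-Hochberg adjustment, threshold 0.05), after the fit was tested on simulated data. The filter kept 79.4% of the member regions and 75.9% of all. CPM are scaled by the TMM factors of each level. Alternatives were RLE factors, library totals, DESeq2 1.42.0, limma-voom (limma 3.58.1), no robust weighting, other filters, an adjusted p of 0.10, no X and Y, regions of 500 bp or more, and each library left out. Gene spans are those of the authors' annotation, and promoter windows and sequences are RefSeq GRCm38.p6. The spans can differ: Tenm3 runs chr8:48227682-48843951 in the authors' annotation and chr8:48225665-49522824 in RefSeq.

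The members and lists were chosen with earlier results of these data known. The named genes are, by a written rule, the gene with most regions per family, up to 6 gene sums and 5 regions per direction by p, 8 promoter and 5 other regions by level, the 3 genes with most and fewest regions, and Prr14. Other genes, the gaps of 5, 10 and 20 kb, the segments and flanks, the windows printed and the motifs were chosen after values were seen. Values of 1 member gene are not reported here.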

Additional observations from a re-analysis of the deposited data

How the results depend on the processing

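The counts of member regions, gene sums and genic sums past the threshold were 0 under each alternative run, and the summed mark moved by less than its spread between libraries, with a log2 difference from -0.012 to 0.022 with a library left out. Most differences of named genes are so near 0 that their sign is not fixed. With regions of 500 bp or more the sign turned for Cntn5 (0.0074), Cntnap5b (0.0017), Lsamp (0.074) and Nlgn1 (0.041), and with library totals for Csmd3 (0.0057) and Nlgn1 (0.0062). Csmd3 turned with a mean count of 20 (0.00093), and Slitrk1 with RLE factors (-3.03e-05), DESeq2 (-8.26e-06) and any count (-0.00051). With a library left out, the log2 difference ran from -0.083 to 0.017 for Cntn5, -0.10 to 0.017 for Cntnap5b, -0.0078 to 0.088 for Csmd1, -0.078 to 0.033 for Csmd3, -0.011 to 0.86 for Flrt1, -0.076 to 0.012 for Flrt2, -0.029 to 0.045 for Lrp1b, -0.037 to 0.060 for Lrrtm3, -0.080 to 0.047 for Lsamp, -0.074 to 0.067 for Nlgn1, -0.11 to 0.0056 for Nrxn3, -0.039 to 0.035 for Slitrk1 and -0.080 to 0.015 for Tenm2. The cause was not tested. No paired analysis was possible because the genotypes share a single replicate number, 4. At this depth single regions resolve only large differences, and no test limits a uniform shift of the mark.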
